A study of Mus musculus with 4 samples.

Results

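The haem synthesis enzymes measured here were Alas1, Alas2, Alad, Urod, Cpox, Ppox and Fech, 7 of the 16675 genes with a named probe on the arrays. They were chosen by name: a probe belonged to the group when the platform's gene table gave one of these symbols as its single gene symbol. Each enzyme had 1 such probe, so no enzyme has another probe to set beside it. RNA came from pools of whole hearts of mouse embryos of a C57bl/6 x129 hybrid strain at embryonic day 9.5, amplified and coupled to the dye Cy5. Of the 4 arrays, 2 held pools labelled Salv CKO, whose Salvador gene (Sav1, coding for a scaffold protein of the Hippo kinase pathway) was conditionally knocked out, and 2 held control pools labelled wild-type. No source used here gives the Cre line behind the knockout, the cells it acts in or the number of hearts in a pool. The series asks which genes the Hippo pathway regulates while the heart forms.

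Haem is made in a chain of enzymes that starts and ends in the mitochondrion and runs through the cytosol in between. 5-aminolevulinate synthase makes the first intermediate and sets the pace of the chain. Alas1 encodes its ubiquitous form, which serves cytochromes and other haem proteins in all cells. Alas2 encodes the form of red cell precursors, whose haem goes into haemoglobin. At this stage of mouse development, primitive red cells from the yolk sac circulate through the beating heart tube, so a whole heart sample holds blood as well as heart muscle, endocardium and surrounding tissue.

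The genes for the 2 forms of the first enzyme lie on different chromosomes, and the 250 bases upstream of their RefSeq starts (build GRCm38.p6) are shown because the comparison of the 2 is central to these data. Capitals mark GATAA on either strand (TTATC on the strand shown), the core that GATA factors, among them the red cell factor Gata1, are known to bind. The Alas2 window is chrX:150547167-150547416 on the plus strand and the Alas1 window is chr9:106247955-106248204 on the minus strand.
Alas2: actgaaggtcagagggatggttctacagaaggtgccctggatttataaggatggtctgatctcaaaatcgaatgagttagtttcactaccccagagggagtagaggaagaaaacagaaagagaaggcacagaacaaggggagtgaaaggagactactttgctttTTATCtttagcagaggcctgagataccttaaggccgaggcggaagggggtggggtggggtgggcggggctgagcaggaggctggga
Alas1: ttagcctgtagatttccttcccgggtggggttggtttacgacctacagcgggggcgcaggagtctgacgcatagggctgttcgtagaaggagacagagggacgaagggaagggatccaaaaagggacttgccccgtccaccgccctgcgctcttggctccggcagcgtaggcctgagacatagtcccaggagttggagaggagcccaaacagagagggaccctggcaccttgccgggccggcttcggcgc

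The Alas2 window held 1 GATAA, 82 to 86 bases before the start, and 3 matches to CACCC, which reads GGGTG on the strand shown and is the core bound by Klf1 and related factors, between 26 and 40 bases before it. The Alas1 window held no GATAA and 1 CACCC, as did the window at its other annotated start. The GC content was 51.2% in the Alas2 window and 62.4% in the Alas1 window. Over all 32851 windows of this length, searched on both strands, 22.6% held GATAA and 52% held CACCC. Windows were read for 6 of the 7 enzymes, 8 windows in all, and GATAA was present in those of Alas2 and Cpox. The Cpox window also held 4 matches to CACCC, so the pair of motifs was not particular to Alas2. No window of Fech was read, and windows on 1 chromosome were left out when those of the enzymes were picked. Whether Fech has a GATAA is therefore not known here. A match is a description of the letters and no measure of binding.

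Of the 7 enzymes, 2 fell in the Salv CKO hearts and none rose. Alas2 fell to about 52.2% of its control level and Alas1 to about 73.6%, while Ppox, a late enzyme, was lower by about as much as Alas1 but did not pass the test. The middle enzymes Alad and Urod were near their control levels, and Cpox and Fech gave signals too dim to be read. Over all genes, 10.6% passed the same test in either direction, 5.7% as lower and 4.92% as higher in Salv CKO. Differences are given as Salv CKO minus control on the log2 scale, with the standard error (n = 2 pools per group), from intensities that were quantile normalised between arrays, and a gene was called at an adjusted p under 0.05 in limma, with Benjamini-Hochberg adjustment over 16675 genes. An intensity over 16 (log2 4) counted as above background, which 6 of the 7 enzymes reached on all 4 arrays and Fech on 2.

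**Figure D1:**
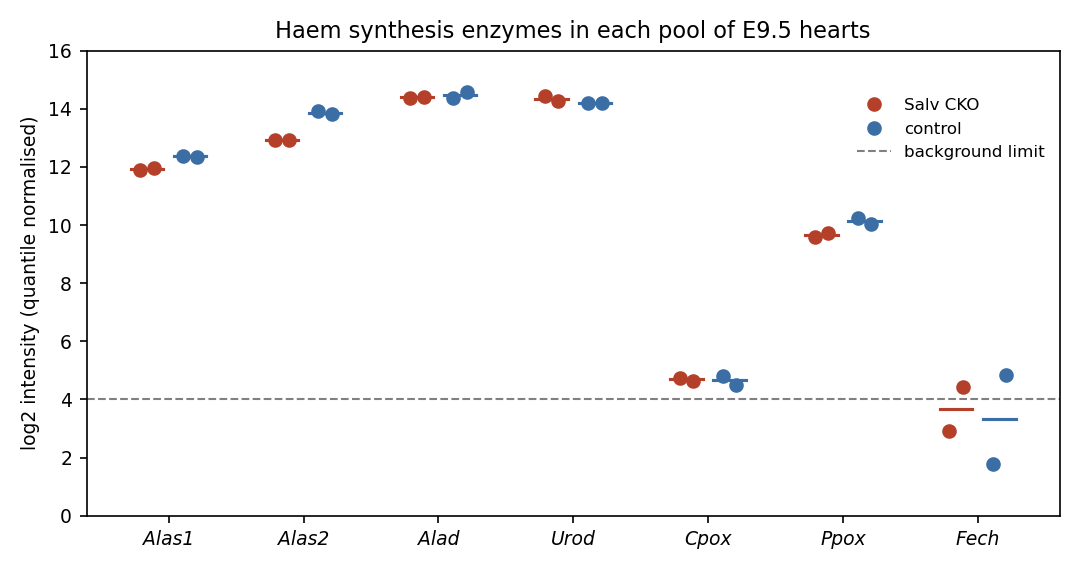
Log2 intensity of each enzyme (vertical axis, quantile normalised) in the Salv CKO pools (red, left of each pair) and the control pools (blue, right), with short bars at the group means and a dashed line at the background limit of log2 4. For Alas2, Alas1 and Ppox both Salv CKO points lie below both control points, as they do for 33.4% of genes above background on all arrays. The Fech points straddle the limit in both groups.

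Median deposited intensities were 71.1 and 76.1 on the Salv CKO arrays and 77.5 and 101 on the control arrays, and log2 intensities over all probes correlated with Pearson's r of 0.937 to 0.947 between arrays. For the 12402 genes that were above background on every array the median difference was -0.04. Sav1 was at log2 9.19 and 9.13 in the Salv CKO pools and at 9.56 and 9.30 in the control pools, a difference of -0.27 ± 0.13 that was not called (limma adjusted p = 0.266). It is unknown here whether its probe lies in the deleted stretch, so this value is no check of the labels.

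Alas2, the red cell form, had log2 intensities of 12.93 and 12.94 in the Salv CKO pools, against 13.92 and 13.83 in the control pools. Both Salv CKO pools lay far below both control pools, and the pools of a group lay close together. The difference was -0.94 ± 0.07 (95% interval -1.11 to -0.77, limma adjusted p = 0.00717), a level 1.92-fold lower in Salv CKO. With any 1 array left out the difference stayed between -0.98 and -0.90 but was not called (limma adjusted p = 0.189 to 0.201), as was then true of every gene on the arrays, and the call also needed the intensity trend in the spread (limma adjusted p = 0.125 without it). Of the 12402 genes above background on every array, 3.26% had a difference as low as this or lower.

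Alas1, the ubiquitous form, had log2 intensities of 11.89 and 11.95 in the Salv CKO pools and of 12.38 and 12.34 in the control pools. The groups did not overlap here either. The difference of -0.44 ± 0.07 (95% interval -0.62 to -0.27) passed the test (limma adjusted p = 0.0241) and amounts to a level 1.36-fold lower in Salv CKO. It was -0.47 to -0.41 and not called with any 1 array left out (limma adjusted p = 0.189 to 0.202), and it just missed the threshold with intensities floored at 16 (limma adjusted p = 0.0526) or 64 (limma adjusted p = 0.0516). Without the intensity trend it was not called (limma adjusted p = 0.181). Of the genes above background on all arrays, 18.1% had a difference as low as this or lower.

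Within each array, the log2 intensity of Alas2 minus that of Alas1 gives a contrast that no scaling factor of the array can alter. It was 1.04 and 0.99 in the Salv CKO pools, against 1.54 and 1.48 in the control pools. The contrast was thus smaller in both Salv CKO pools than in either control pool, with means of 1.01 ± 0.04 (SD, n = 2) in Salv CKO and 1.51 ± 0.04 (SD, n = 2) in the controls. The change of -0.50 was about as large as the fall of Alas1 itself and well outside the spread between pools. In the exact two-sided permutation test over the 4 arrays the p was 0.333, the smallest that 2 pools against 2 can give, so this test cannot reach the threshold. The change came to -0.48 when arrays were centred on their medians, divided by their 75th percentiles or left as deposited. It shows that the 2 probes changed unequally; the level of one probe cannot be read against that of the other.

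Alad, the cytosolic enzyme that joins 2 molecules of aminolevulinate into the first pyrrole, had log2 intensities of 14.39 and 14.42 in the Salv CKO pools and of 14.39 and 14.57 in the control pools. The groups overlapped, and one control pool was the highest of the 4. The difference was -0.07 ± 0.08 (95% interval -0.29 to 0.14, limma adjusted p = 0.631). Against Alas1 within each array, Alad stood 0.37 higher in Salv CKO than in control (exact permutation p = 0.333, the smallest possible).

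Urod, which trims the side chains of the first ring-shaped intermediate, had log2 intensities of 14.44 and 14.27 in the Salv CKO pools and of 14.22 and 14.20 in the control pools. Both Salv CKO pools lay above both control pools, by less than the gap between the Salv CKO pools in the case of the lower one. The difference of 0.15 ± 0.08 (95% interval -0.05 to 0.35) was not called (limma adjusted p = 0.315), and its sign turned with the values centred on the array median (-0.03) or as deposited (-0.30). Against Alas1 within each array, Urod stood 0.59 higher in Salv CKO than in control (exact permutation p = 0.333, the smallest possible).

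Uros, which is not one of the 7, closes the ring one step before Urod. It had log2 intensities of 10.33 and 10.33 in the Salv CKO pools and of 10.55 and 10.44 in the control pools. The groups did not overlap, and the difference of -0.16 ± 0.08 was not called (limma adjusted p = 0.311).

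Cpox, which acts next after Urod and brings the pathway back to the mitochondrion, had log2 intensities of 4.74 and 4.65 in the Salv CKO pools and of 4.82 and 4.50 in the control pools. All of these lie just above the background limit, and the groups overlapped. The difference was 0.03 ± 0.41 (limma adjusted p = 0.971). Its 95% interval of -1.03 to 1.10 would hold a change as large as that of Alas2 in either direction.

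Ppox, the mitochondrial enzyme that follows Cpox, had log2 intensities of 9.60 and 9.73 in the Salv CKO pools and of 10.24 and 10.04 in the control pools. Both Salv CKO pools lay below both control pools, which was also the case for 33.4% of genes above background on all arrays. The difference of -0.47 ± 0.11 (95% interval -0.77 to -0.18) was of the size of that of Alas1, with a wider error, and missed the threshold (limma adjusted p = 0.0676). It was called (limma adjusted p = 0.0391) when genes not above background on all arrays were left out of the fit. Within each array Ppox minus Alas1 differed by -0.03 between Salv CKO and control, with overlapping groups (exact permutation p = 1).

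Fech, which inserts the iron and completes haem, had log2 intensities of 2.91 and 4.44 in the Salv CKO pools and of 1.77 and 4.86 in the control pools. In each group 1 pool was above the background limit and the other below it, and the gap between the control pools, 3.08, was far larger than the difference between the group means. The difference of 0.36 ± 1.23 (95% interval -2.81 to 3.52, limma adjusted p = 0.890) carries no information on the direction of change.

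**Figure D2:**
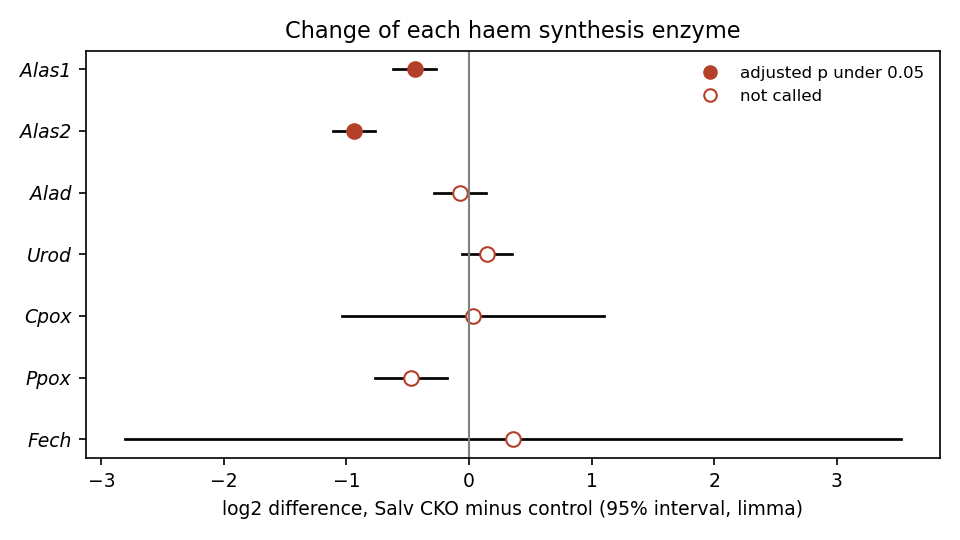
Log2 difference of each enzyme, Salv CKO minus control (horizontal axis), with the 95% interval from limma (bars), in the order Alas1, Alas2 and then along the chain. Filled points are called at an adjusted p under 0.05, which holds for Alas2 (-0.94) and Alas1 (-0.44). The intervals of Cpox and Fech are far wider than the others.

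The 5 enzymes with clear signal, Alas1, Alas2, Alad, Urod and Ppox, kept their order of change when the arrays were scaled in other ways, except that Alas1 and Ppox changed places by small amounts. As deposited, without scaling, all 5 were lower in Salv CKO, with Alas2 at -1.44, Alas1 at -0.96, Ppox at -0.95, Alad at -0.51 and Urod at -0.30. The median over genes above background was itself -0.44 there. Relative to that median, the deposited values gave -0.996 for Alas2, -0.52 for Alas1, -0.51 for Ppox, -0.06 for Alad and 0.14 for Urod. None of these enzymes was saturated on any array.

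**Figure D3:**
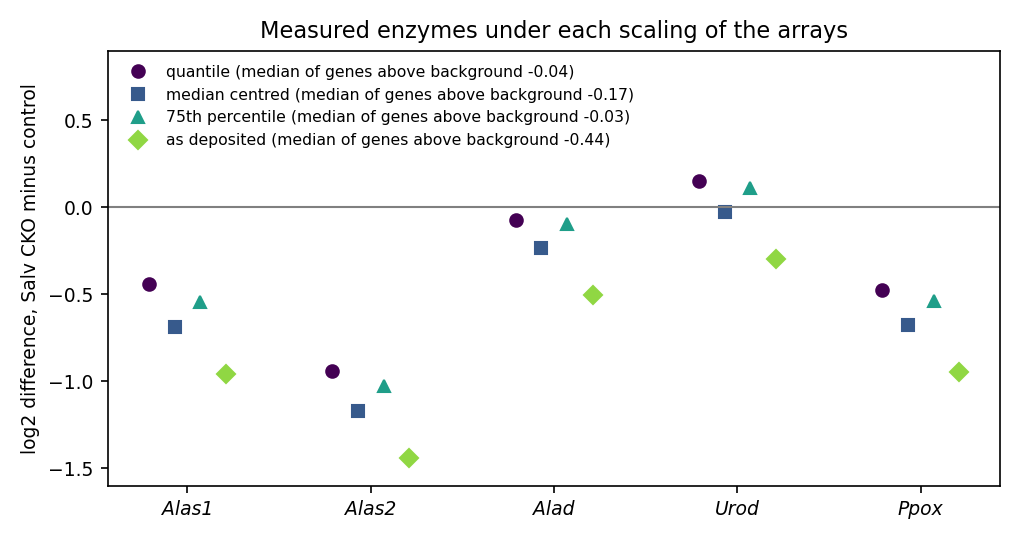
Log2 difference, Salv CKO minus control (vertical axis), of the 5 enzymes with clear signal under 4 ways of scaling the arrays (symbols), with the median difference of genes above background under each in the legend. Alas2 is lowest under every one of them and Urod highest, and only Urod changes sign, to -0.03 and -0.30 in place of 0.15.

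Genes that supply or surround the chain were taken from lists. Of 12 measured transporters and mitochondrial partners of haem synthesis, 3 fell and none rose, where 5.7% of all genes fell and 4.92% rose, and their median difference was -0.36, beside -0.04 over all genes above background. Abcb10, a mitochondrial transporter needed for haem synthesis in red cell precursors, had log2 intensities of 10.48 and 10.57 in the Salv CKO pools and of 11.29 and 11.34 in the control pools. It lay below both controls in both Salv CKO pools and fell by 0.79 ± 0.08 on the log2 scale (limma adjusted p = 0.0112). Tspo, a mitochondrial outer membrane protein that binds porphyrins, fell by 0.69 ± 0.09 (limma adjusted p = 0.0184). Tmem14c, a porphyrin transporter of the inner membrane, fell by 0.34 ± 0.07 (limma adjusted p = 0.0425). Of the 12, 8 had a difference below 0. Among the rest, Slc25a38 was at 0.19 ± 0.08 and Abcb6 at 0.84 ± 0.36, and neither was called (limma adjusted p = 0.206 and 0.232).

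Of 12 measured genes of haem export, binding and breakdown, 2 fell and 1 rose, against 5.7% and 4.92% of all genes, and their median difference was 0.07. Both biliverdin reductases, which make bilirubin, were among them, with Blvrb fallen by 0.54 ± 0.07 (limma adjusted p = 0.0186) and Blvra by 0.41 ± 0.07 (limma adjusted p = 0.0328). Hmox1, the inducible haem oxygenase that opens the haem ring, had log2 intensities of 10.66 and 10.74 in the Salv CKO pools and of 10.27 and 10.25 in the control pools. It rose by 0.44 ± 0.08 (limma adjusted p = 0.0364), while Hmox2, the constitutive form, gave -0.02 (limma adjusted p = 0.895).

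Of 13 measured genes of iron uptake, storage and sensing, 1 rose and 1 fell, a share near the 10.6% of all genes called in either direction. Slc40a1, the iron exporter ferroportin, had log2 intensities of 10.35 and 10.34 in the Salv CKO pools and of 9.75 and 9.62 in the control pools, and rose by 0.66 ± 0.09 (limma adjusted p = 0.0195). Fth1, the heavy chain of the iron store ferritin, fell by 0.37 ± 0.07 (limma adjusted p = 0.0411). The transferrin receptor Tfrc, through which red cell precursors take up iron, was at -0.32 ± 0.09 and was not called (limma adjusted p = 0.0973). None of 10 measured genes of iron-sulphur cluster assembly was called, with a median of -0.04, and those of lowest p were Bola3 at -0.37 (limma adjusted p = 0.0685) and Lyrm4, above background on 1 array, at 2.58 (limma adjusted p = 0.245). Of 9 measured cytochrome and respiratory genes 1 was called, again a share near the 10.6% of all genes. This gene, Cox15, which converts haem into the form that cytochrome oxidase uses, fell by 0.49 ± 0.10 (limma adjusted p = 0.0484), and its other probe was above background on 1 array.

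The fall of Alas2 came with lower signals of other red cell genes. Of 20 measured red cell markers, 6 fell and none rose, beside 5.7% and 4.92% of all genes. Their median was -0.59, or -0.49 over those above background on all arrays. In 16 of the 20 the groups did not overlap, with Salv CKO lower, against 29% of all genes, or 33.4% of genes above background on all arrays. Among these 16 were Rhd, above background on 1 array, and Rhag, above it on none. The embryonic globin Hbb-y had log2 intensities of 13.01 and 12.50 in the Salv CKO pools and of 13.67 and 14.01 in the control pools. It fell by 1.08 ± 0.20 (limma adjusted p = 0.0387). The red cell membrane genes Ank1, Kel and Epb4.9 fell by 1.01 ± 0.13, 0.92 ± 0.16 and 0.78 ± 0.10 (limma adjusted p = 0.0158 to 0.0343). Slc4a1 and Zfpm1 also fell, with differences of -0.62 ± 0.07 and -0.34 ± 0.06 (limma adjusted p = 0.0134 and 0.0350). The other 3 probes of Ank1 gave -0.94, -0.51 and 0.55 with no call, the last of them above background on 1 array. Of the 16 markers above background on all arrays, 2 had a lower difference than Alas2 and 8 had a lower one than Alas1.

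Not every red cell gene was as low as Alas2. Lmo2 and Nfe2 lay above 0, at 0.08 ± 0.11 and 0.26 ± 0.65, and neither was called (limma adjusted p = 0.688 and 0.846). The globin Hbb-bh1 was at -0.26 ± 0.06 and was not called (limma adjusted p = 0.0628). The globin Hba-x was saturated on 3 of 4 arrays, which leaves its difference of -0.01 without meaning. The red cell regulators Gata1 and Klf1 were at -0.59 ± 0.25 and -0.40 ± 0.15, and neither was called (limma adjusted p = 0.218 and 0.181). Summed over the 20 markers, the normalised intensity was 122248 to 122468 in the Salv CKO pools and 143763 to 145845 in the control pools. Without the saturated Hba-x it was 58976 to 61288 in the Salv CKO pools and 80481 to 84048 in the control pools, a sum in which the brightest globins weigh most. On all 4 arrays, 3 of the markers, Epb4.2, Nfe2 and Rhag, were below the background limit, and Rhag was at the floor in both Salv CKO pools. In pooled whole hearts, fewer red cells and less Alas2 RNA per red cell cannot be told apart.

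Markers of other cell types also moved between the same pools, and their counts stand beside 5.7% of all genes that fell and 4.92% that rose. These shares, here and for the lists above, include genes not above background on all arrays, while most listed genes are above it. With the fit limited to the 12402 genes above background on all arrays, 1437 were called lower and 1239 higher. Counts per list in that fit are not given. All 19 measured heart muscle markers were above background on all 4 arrays, and 10 of them fell and none rose (median -0.66). Of 14 endothelial markers 5 fell and 1 rose (median -0.51). Of 10 platelet and myeloid markers 2 fell and none rose (median -0.36). Of 13 neural and neural crest markers 7 rose and none fell (median 2.57), and of 12 endoderm and yolk sac markers 4 rose and none fell (median 1.11). The summed normalised intensity was 432876 to 438912 in the Salv CKO pools and 502505 to 544858 in the control pools for the heart muscle list, but 5 of its 19 markers were saturated on at least 2 arrays, so this sum does not give the size of the change. Over the other 14 it was 154916 to 156737 in the Salv CKO pools and 207094 to 237729 in the control pools. For the neural list the sum was 15112 to 15456 in the Salv CKO pools and 6172 to 7029 in the control pools. Olig2 was by far the brightest of this list in the control pools, at log2 12.27 and 12.53. It was at 12.20 and 12.38 in the Salv CKO pools and was not called (-0.11 ± 0.12, limma adjusted p = 0.612). The neural sum therefore does not give the size of the change of the other neural markers. For the endothelial list the sum was 19504 to 20230 in the Salv CKO pools and 29777 to 30653 in the control pools. The platelet and myeloid list summed to 1482 to 1532 in the Salv CKO pools and 2285 to 2646 in the control pools. The endoderm list summed to 9397 to 9413 in the Salv CKO pools and 3823 to 3925 in the control pools. The part of these shifts in the lower Alas1, which all of these tissues may express, was not tested.

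**Figure D4:**
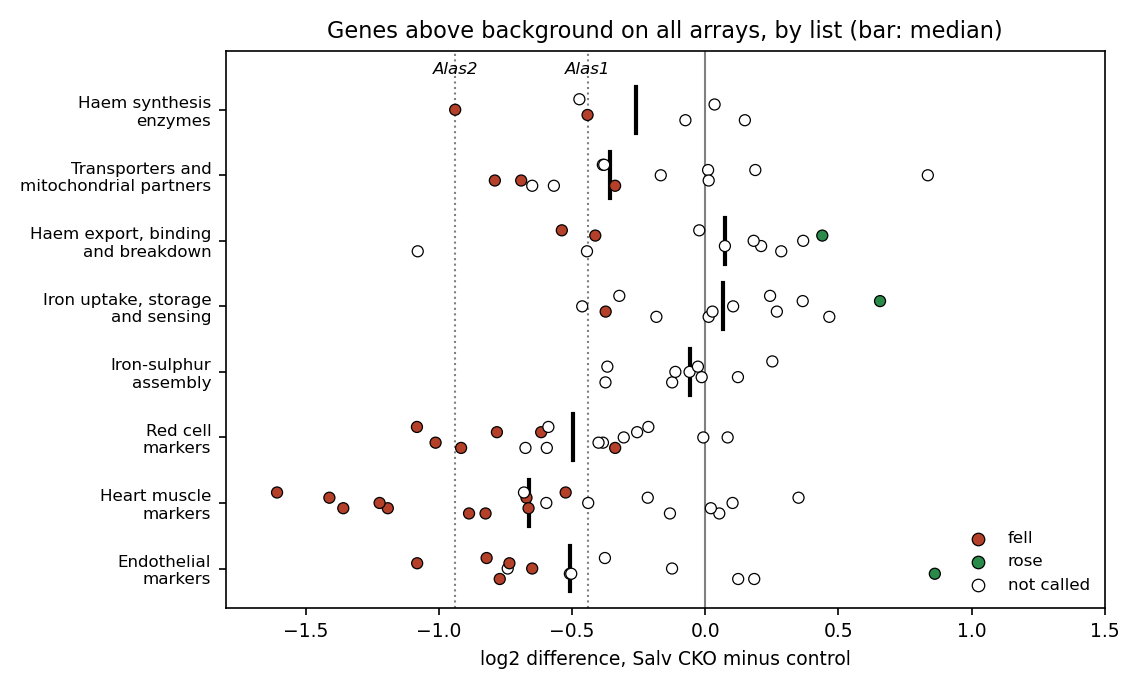
Log2 difference, Salv CKO minus control (horizontal axis), of each gene above background on all 4 arrays, by list, with a thick bar at the list's median and dotted lines at Alas2 (-0.94) and Alas1 (-0.44). Red points fell, green points rose and open points were not called. The red cell, heart muscle and endothelial lists lie mostly left of 0, and the iron and breakdown lists lie on both sides.

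The profile of Alas2 over the 4 arrays was shared with many genes outside the pathway. Likeness was measured as the mean absolute distance between mean-centred log2 values over the 4 arrays, and of 10811 genes searched 215 lay within 0.1 of Alas2. The nearest were Bat2 (distance 0.013), the tetraspanin Tspan18 (0.015), the metalloprotease Adamts7 (0.016), the interferon gamma receptor chain Ifngr2 (0.016) and the mitochondrial protein Rtn4ip1 (0.022). Their differences lay between -0.95 and -0.91, and all but Adamts7 were called. The other probes of Tspan18 gave -0.14 and -1.58 and that of Ifngr2 gave -0.60, none of them called. Alas1 was at a distance of 0.25 and Ppox at 0.23, with Alad, Cpox and Urod farther off at 0.43, 0.49 and 0.54. With 4 arrays in 2 groups, such a distance mostly reads the size of the difference between groups.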

How the data were processed

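Per the labels, Cy5-labelled amplified RNA was hybridised to one-colour arrays, 1 pool of hearts per array, and samples were grouped by title. The authors deposited probe intensities on a linear scale; 3.37 to 5.99% of values per array lay below 0, so background had been subtracted. No source used here names the scanner, software or scaling. The platform's gene table gave 1 symbol for 21020 of 29922 probes. The intensities were quantile normalised, floored at 1 and put on the log2 scale. For each gene the probe with the highest mean log2 over the 4 arrays was used, and genes were fitted with limma 3.58.1 in R 4.3.3 (lmFit, eBayes with an intensity trend), two-sided. The procedure was tested on simulated data, but no outcome of that is given here, so it adds no weight to the calls.

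The enzymes and gene lists were chosen with earlier results of these data known. Listed genes were matched by symbol or an unambiguous RefSeq synonym. Named besides the enzymes were up to 4 called members per list with the largest difference, or else the 2 of lowest p, Sav1, and the 5 genes nearest to Alas2. Hmox2, Tfrc, Hbb-bh1, Hba-x, Gata1, Klf1, Epb4.2, Nfe2, Rhag and Rhd were named after values were seen. So were Slc4a1, Zfpm1, Lmo2, Slc25a38, Abcb6 and Olig2. The sums without saturated markers were added then too. The pools are described as biological replicates; the number of arrays limits the precision. Alternatives were other scalings, floors, filters, variance models and probe summaries, each array left out, and the replicate number as a block.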

Additional observations from a re-analysis of the deposited data

How the results depend on the processing

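Alas2 and Alas1 were lower in Salv CKO under all 15 alternatives, with differences of -1.44 to -0.90 for Alas2 and of -0.96 to -0.41 for Alas1, and were called under 10 and 8 of them. The floors, filters, variance models, probe summary and replicate block leave both differences at their main values and test the calls only. The sign could have turned only under the other scalings and with 1 array left out. The count of called enzymes, 2, was 1 (Alas2) with all genes floored at 16 or 64, where 481 and 491 of all genes were called in place of 1772, and Alas1 had a limma adjusted p of 0.0526 and 0.0516. No enzyme and 0 genes were called without the intensity trend (3578 at an unadjusted p under 0.05, 3 of the enzymes among them) or with any 1 array left out (0 enzymes and 0 genes, with 3170 to 3428 genes and 2 to 4 enzymes at an unadjusted p under 0.05), where a lone pool is taken to vary like the other group and 1 residual degree of freedom is left. Over all genes 3330 were called with the values as deposited and 2676 with the fit limited to genes that all 4 arrays held above background. The share of calls that were higher in Salv CKO was 46.3%, but 22.3% with arrays centred on the median, 40.6% with the 75th percentile and 6.88% as deposited. Ppox was called under 5 of 15 alternatives (limma adjusted p = 0.00837 to 0.307). The change of Alas2 against Alas1 kept its sign under all 11 alternatives, at -0.53 to -0.47, but most of these could not move it. The floors, the probe summary and the replicate block leave this contrast at its main value of -0.50. The other scalings all give the same -0.48, because a factor per array cancels. Only the fits with 1 array left out varied from one to the next.

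Signs that turned were all of enzymes that were not called: Urod at -0.030 (centred on the median) and -0.30 (as deposited), Cpox at -0.23 (as deposited), Fech at -0.21 (floor of 16), and, over the fits with 1 array left out, Alad (-0.17 to 0.016), Cpox (-0.12 to 0.19) and Fech (-1.18 to 1.90); the cause was not tested. At a floor of 64 Cpox and Fech have no difference. The replicate numbers pair no samples by the labels; with them as a replicate block 2211 genes and the same 2 enzymes, Alas1 and Alas2, were called, and deviations of same-numbered arrays correlated at 0.147 across probes.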
